A study of Danio rerio with 9 samples.

Results

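The zebrafish larva at the Protruding-mouth stage, 72 hours post-fertilization (hpf), was compared with the 1-week larva, an interval in which the embryo's yolk store runs down and the larva starts to swim and to take food. Of the 29291 genes in the deposited table, 18247 reached at least 1 RPKM (reads normalized to gene length and to mapped reads) in either of these 2 libraries, and these are the genes described. The measure is the difference in log2(RPKM + 1), 1 week minus Protruding-mouth, so that a positive value means a higher level at 1 week, and the added 1 understates the differences of low genes. The series holds 9 libraries, 1 per stage from the 64-cell embryo onward, each made from poly(A) RNA of about 2000 whole AB-strain embryos or larvae kept at about 28.5°C. The labels do not say whether the 1-week larvae had been fed. With 1 library per stage there is no replicate error, so no difference was tested, and every value describes these pools alone. In whole larvae, fewer cells of a type and less RNA per cell cannot be told apart.

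Over these days the exocrine pancreas, liver and intestine of the zebrafish larva take over nutrition from the yolk. The exocrine pancreas stores digestive enzymes as inactive precursors and releases them into the gut, where enterocytes cut the products further at their brush border and take them up. Muscle fibres, the lens, the retina and the skin go on growing and maturing, while many progenitor populations of the embryo leave the cell cycle.

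The read totals implied by the RPKM values were 205507592 for Protruding-mouth and 204464275 for 1 week. For a gene of 2033 bases, the median recovered length, 1 RPKM stood for 418 and 416 reads, and the exact 95% Poisson interval of 1 RPKM ran from 0.907 to 1.1 RPKM in the 1-week library. A recovered length can be a multiple of the true one, and a gene's reads are then overstated and its counting interval is too narrow. The 1-week library stood apart from the other 8 in the genes it holds. In it, 714 genes that are listed at 0 in the 8 other libraries had a value above 0, where each other library had between 26 and 41 such genes. At a higher level, 398 genes at or under 0.1 RPKM in the 8 other libraries reached at least 1 RPKM at 1 week, against 0 to 7 for each other library. Some of these are genes that most cells use. PPID, a cyclophilin chaperone, was listed at 0 in the 8 other libraries and stood at 8.82 RPKM at 1 week. CDKN1B, an inhibitor of cyclin-dependent kinases, was listed at 0 at Protruding-mouth, reached at most 0.00825 RPKM in the earlier libraries and stood at 20.3 RPKM at 1 week, and the reticulon gene rtn3 stood at 0.00399 and 12.7 RPKM. What sets these genes apart in this library was not tested. The main counts are therefore also given without the 398 genes. Those counts still hold genes above that limit with large ratios of 1 week to Protruding-mouth. Examples are the respiratory subunit cox5aa with 230 and SSR3, of the endoplasmic reticulum, with 74.1.

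**Figure D1:**
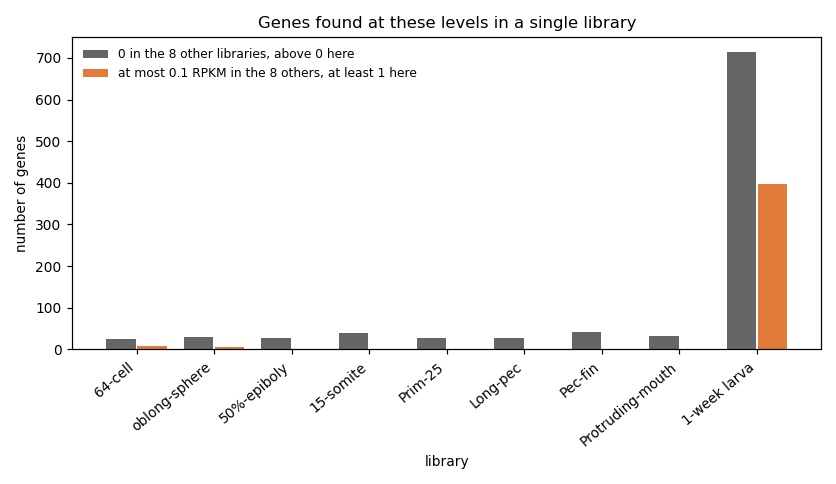
Number of genes seen in a single library, for each of the 9 libraries. Grey bars count genes listed at 0 in the 8 other libraries and above 0 in the one shown, and orange bars count genes at or under 0.1 RPKM in the others and at or above 1 RPKM in the one shown. The 1-week bars reach 714 and 398.

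Far more genes were higher than lower at 1 week. At least 4-fold (a difference of 2 or more), 1040 genes were higher, which is 5.7% of the genes kept, and 88 were lower, which is 0.482%. At 2-fold, the threshold used for members of gene groups, 2993 were higher (16.4%) and 1362 lower (7.46%), and the median difference of all genes kept was -0.01. Without the genes near 0 in the 8 other libraries, 894 genes were at least 4-fold higher. The excess of higher genes depends on scaling. With median-of-ratios size factors from all 9 libraries, every log2 RPKM ratio shifts by -0.43, and the counts become 761 higher and 248 lower. The other scalings tried shift ratios by -0.19 to -0.54, so they reduce the groups described as higher and enlarge those described as lower. Of the 1040 higher genes, 964 had their highest level of the 9 libraries at 1 week, and 58 had it at the 64-cell stage.

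**Figure D2:**
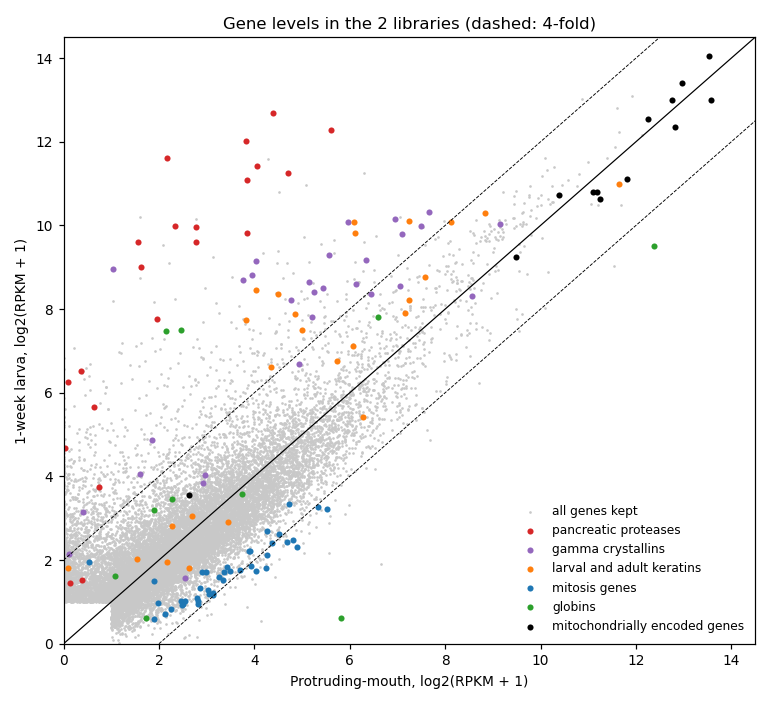
Level of each gene kept in the 2 libraries, Protruding-mouth on the horizontal and 1-week larva on the vertical axis, both in log2(RPKM + 1). Grey dots are all genes kept, coloured dots are members of 6 groups, the solid line marks equal levels and the dashed lines 4-fold differences. Of 21 pancreatic proteases, 19 lie above the upper dashed line, nearly all mitosis genes lie below the line of equality, and mitochondrially encoded genes other than MT-ND6 lie at the top right near equality.

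Exocrine pancreas genes made up most of the largest differences in the table. Folds in counts of members are on the log2(RPKM + 1) scale. A member under 1 RPKM at Protruding-mouth was kept only through the 1-week library, so it could not count as lower. Such counts stand beside the 16.4% of all genes kept that were 2-fold higher and the 7.46% that were lower. Several groups below lie near the 16.4% in their share of higher members. Among them are the vascular, cholesterol, phagocyte, neural progenitor, pigment and cartilage groups. The thyroid and steroid group, the acute phase group and respiratory complexes II to V are others. In each pair of values, the first is RPKM at Protruding-mouth and the second is RPKM at 1 week. Of 21 pancreatic proteases kept, 21 were higher by 2-fold or more and 0 lower. Their median difference was 6.65. The trypsinogen gene prss1, whose product activates the other precursors, stood at 48.1 and 4939 RPKM. Its ratio of 103 has an exact conditional 95% interval from 101 to 105, which covers counting error only. The trypsin-like gene prss59.1 had the largest difference of all named genes, 9.45, with 3.5 and 3142 RPKM. Chymotrypsinogen ctrb.1 stood at 13.2 and 4168 RPKM and elastase ela3l at 15.7 and 2750.5 RPKM. At the low end of the group, prss60.3 stood at 0.104 and 1.73 RPKM. The pancreas and liver genes were not at 0 in all earlier libraries. From the 64-cell to the Pec-fin library, prss1 stood at 20.9, 0.273, 12.1, 25.4, 4.39, 17.6 and 1.38 RPKM, without an order by age and with a value at a stage that has no pancreas. The liver gene fabp10a stood at 20.6 RPKM in the 64-cell library and 0.487 RPKM at Pec-fin. Both genes had their highest level at 1 week, and whether RNA from older animals is part of their level in the other libraries, Protruding-mouth included, was not tested. The proteases together held 0.0451% of the library's summed RPKM at Protruding-mouth and 5.85% at 1 week. The summed RPKM of all genes was 392266 at Protruding-mouth and 541791 at 1 week. A group's share can therefore be smaller at 1 week although its own summed RPKM is not. Trypsin, chymotrypsin and elastase genes have near-identical copies that can share reads, so the split among copies is less certain than the sum.

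Enzymes for starch and fat followed the proteases, although not all of them. Of 9 amylase, lipase and zymogen granule genes, 7 were higher by 2-fold or more. The amylase gene amy2a stood at 5.89 and 1148 RPKM, and sycn.1, which encodes the granule protein syncollin, at 2.03 and 1168 RPKM. PLA2G1B, the pancreatic phospholipase, stood at 0.454 and 83.8 RPKM and pdia2, a pancreatic protein disulfide isomerase, at 2.88 and 68.5 RPKM. The amylase gene amy2al1 stood at 0.885 and 1.7 RPKM, short of 2-fold. The pancreas transcription factors did not share this pattern. Of 6 kept, 0 were 2-fold higher and 2 lower. When members listed without their final paralogue letter were added, 6 of 11 were lower and 0 higher, with a median of -1.03. PTF1A, needed to form acinar cells, stood at 5.71 and 4.77 RPKM, and pdx1, needed for the pancreatic bud, at 2.98 and 4.52 RPKM. MNX1 stood at 5.29 and 1.26 RPKM. Among endocrine hormone and processing genes, 2 of 9 were 2-fold higher, and both are IDs of SCG5, one of which is among the genes near 0 in the 8 other libraries. Insulin (ins) stood at 23.2 and 25.7 RPKM, glucagon (gcga) at 1.75 and 3.34 RPKM and somatostatin sst2 at 111 and 69.5 RPKM, all within 2-fold.

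In the intestine, most brush border hydrolases stood higher at 1 week, and most genes of structure and mucus stood within 2-fold. Of 16 brush border hydrolases, 12 were higher by 2-fold or more and 0 lower, with a median of 1.63. Their median level at Protruding-mouth was 0.372 RPKM, so most were kept through the 1-week library alone. The lack of lower members largely follows from that filter. Of the 16, 1 is among the genes near 0 in the 8 other libraries. The meprin gene mep1a.1 stood at 0.368 and 13.8 RPKM and the neutral ceramidase ASAH2 at 0.376 and 5.88 RPKM. Members without that difference included the aminopeptidase ANPEP at 2.58 and 2.31 RPKM and the intestinal alkaline phosphatase alpi.1 at 7.49 and 4.35 RPKM. Of 12 nutrient transporters, 4 were 2-fold higher and 0 lower. SLC5A1, the sodium-coupled glucose carrier, stood at 1.1 and 26.1 RPKM, whereas the iron exporter SLC40A1 stood at 19.3 and 15.4 RPKM. Of 7 structure and mucus genes, the 2 that were 2-fold higher were VIL1, the microvillus actin bundler villin, at 3.89 and 26 RPKM, and the mucin muc13b with a difference of 2.47. The intestinal cadherin CDH17 stood at 13.2 and 14.3 RPKM.

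Genes of fat absorption and lipoproteins split into members higher and members lower. Of 17 kept, 7 were higher by 2-fold or more and 6 lower. The higher members included intracellular binding proteins and an enzyme that rebuilds fat. FABP6, the ileal bile acid binding protein, stood at 1.23 and 125 RPKM, FABP2, the enterocyte fatty acid binding protein, at 43 and 225 RPKM, and MOGAT2, which rebuilds triglyceride, at 1.63 and 7.02 RPKM. The highest level of FABP2 in the series was at 15-somite, with 315 RPKM. The lower members were mainly apolipoproteins, which the yolk syncytial layer, a cell layer that exports yolk lipid, also makes. The apolipoprotein A-I gene apoa1a stood at 2993 and 523 RPKM, apoc1 at 723 and 218 RPKM and apobb.1 at 145 and 58 RPKM. Another apolipoprotein B copy, apobb.2, stood at 5.97 and 0.118 RPKM. Their relative apoa4b.3 went the other way, with 0.856 and 69.8 RPKM. The group's share of summed RPKM was 1.2% and then 0.41%. On the yolk list, 2 of 11 members were 2-fold higher and 3 lower, the latter being apoa2 (3288 and 1438 RPKM), afp4 (137 and 37.5 RPKM) and apobb.1.

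**Figure D3:**
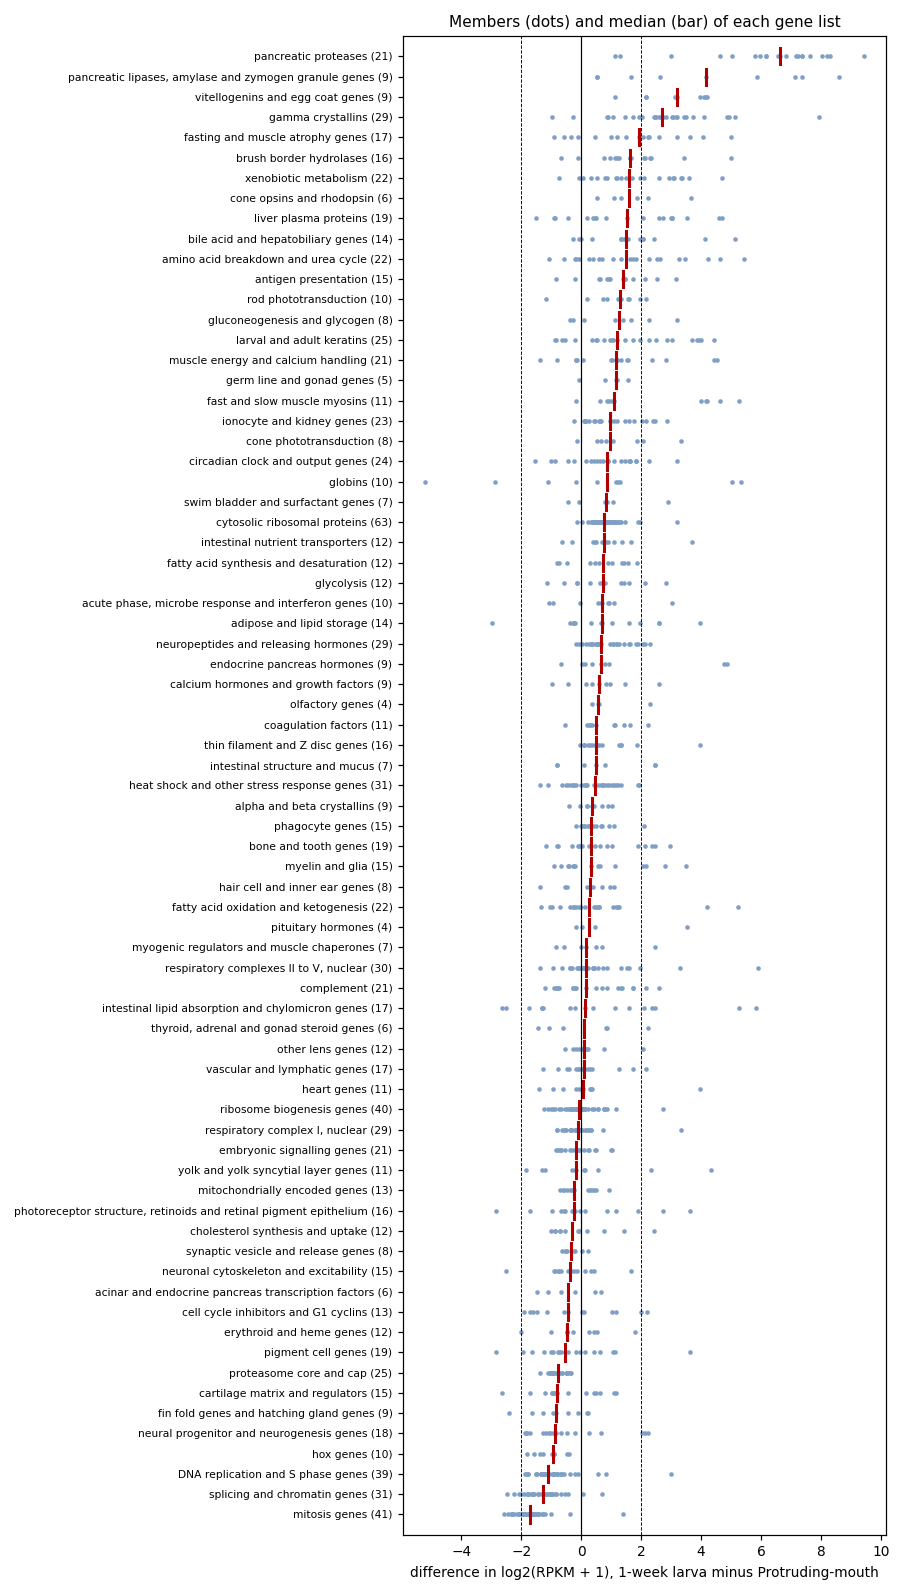
Difference in log2(RPKM + 1), 1 week minus Protruding-mouth, of every member kept (blue dots) of the 73 gene groups with at least 4 such members, with the group median as a red bar and the number kept in brackets. Dashed lines mark 4-fold. Medians run from mitosis genes at -1.70 to pancreatic proteases at 6.65, and several groups, among them globins and fat absorption, have members on both sides.

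Bile acid genes and plasma proteins of the liver stood higher at 1 week by similar medians, and members of both groups differed among themselves. Of 14 bile acid and hepatobiliary genes, 10 were higher by 2-fold or more and 0 lower, with a median of 1.49. CYP7A1, the rate-limiting enzyme of bile acid synthesis, stood at 0.577 and 26.5 RPKM, and its ratio of 45.9 has a counting interval from 40.4 to 52.3. The hepatocyte fatty acid binding protein fabp10a stood at 17.3 and 648 RPKM, and the canalicular exporter abcc2 at 4.38 and 20.2 RPKM. At 15-somite, abcc2 had already stood at 18.9 RPKM. Among 19 genes of the plasma protein list, 10 were 2-fold higher and 1 lower. Their median difference was 1.52. The list also holds uox, which encodes the enzyme urate oxidase and not a plasma protein. It counted as higher, at 6.11 and 42.1 RPKM. Carriers and fetuins were among the higher ones. The thyroid hormone carrier TTR stood at 0.9 and 47.9 RPKM, the vitamin D binding protein GC at 3.39 and 49.9 RPKM, and the fetuin ahsg2 at 0.383 and 32.5 RPKM. The protease inhibitor serpina1 stood at 20.5 and 172 RPKM. Transferrin (tfa), the iron carrier, was the lower one, with 492 and 173 RPKM, and the fibrinogen chain FGB stood at 50.4 and 26.9 RPKM. Of 11 coagulation genes, 5 were 2-fold higher, led by tissue factor f3b with 3.57 and 20.7 RPKM, and prothrombin (f2) stood at 19.2 and 12.9 RPKM. Of 21 complement genes, 7 were higher and 1 lower, with factor D (cfd) at 22.6 and 144 RPKM and c8b at 13.6 and 5.34 RPKM.

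Genes that make glucose from other fuels and break down amino acids stood high at 1 week. Of 8 gluconeogenesis and glycogen genes, 5 were higher by 2-fold or more and 0 lower. PCK1, which commits oxaloacetate to glucose synthesis, stood at 31.7 and 299.5 RPKM. The fructose bisphosphatases fbp1a and fbp1b stood at 18.3 and 60.9 RPKM and at 70.0 and 186 RPKM. In glycolysis, 5 of 12 were 2-fold higher and 1 lower. PKLR, the liver pyruvate kinase, was among the higher ones at 15.6 and 118 RPKM. Of 22 genes of amino acid breakdown, 13 were higher and 1 lower, with a median of 1.49. Tyrosine breakdown was represented at several steps. TAT, its first enzyme, stood at 2.6 and 156 RPKM, hpda, the second, at 6.03 and 76 RPKM, and HGD, the third, at 12.1 and 124 RPKM. The tryptophan-degrading tdo2b stood at 0.408 and 34.2 RPKM and arginase ARG2 at 6.15 and 132 RPKM. CPS1, the entry enzyme of the urea cycle, was the lower one at 1.91 and 0.4 RPKM.

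A list of genes known in vertebrates to respond to fasting, glucocorticoids or muscle wasting was among those with the highest medians, 1.92. Of 17 kept, 12 were higher by 2-fold or more and 0 lower. The muscle ubiquitin ligases FBXO32 (atrogin) and trim63a (MuRF) stood at 1.83 and 46.8 RPKM and at 13.9 and 183 RPKM. The growth factor binding protein igfbp1b stood at 3.05 and 130.1 RPKM. KLF15, a glucocorticoid-responsive factor, stood at 4.55 and 25.7 RPKM, DDIT4, an inhibitor of mTOR signalling, at 23.1 and 111 RPKM, and FKBP5, a glucocorticoid target, at 27.8 and 80.2 RPKM. The other 5 were within 2-fold on the log2(RPKM + 1) scale. They were foxo3a, foxo3b, sesn2, ANGPTL4 at 29.5 and 27.4 RPKM and ASNS, asparagine synthetase, at 3.69 and 1.5 RPKM. Without the added 1, ASNS was more than 2-fold lower.

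Fat metabolism was mixed. Of 22 genes of fatty acid oxidation, 6 were higher by 2-fold or more and 2 lower. The mitochondrial carriers UCP1 and ucp3, of a family known in mammals for dissipating the proton gradient, stood at 10.6 and 433 RPKM and at 2.33 and 60.7 RPKM. HADHA, the trifunctional enzyme of beta oxidation, stood at 23.1 and 8.49 RPKM, and the carnitine carrier SLC25A20 at 41 and 19.5 RPKM. Fatty acid synthesis had 5 of 12 genes higher and 0 lower, with the elongase ELOVL2 at 0.697 and 5.12 RPKM. Cholesterol synthesis and uptake had 2 of 12 higher, the LDL receptor ldlra at 1.67 and 13.5 RPKM and MSMO1 at 1.86 and 6.78 RPKM, and 1 lower, IDI1 at 13.9 and 6.36 RPKM. In fat storage, 6 of 14 were higher and 1 lower. The fatty acid binding paralogues fabp4a and fabp4b differed in opposite directions, with 0.34 and 19.9 RPKM for fabp4a and 13.4 and 0.831 RPKM for fabp4b. Lipoprotein lipase (LPL) stood at 22.6 and 142 RPKM and pparg, the regulator of fat cells, at 1.26 and 5.79 RPKM. Of 22 genes that modify foreign compounds, 15 were 2-fold higher and 0 lower, with the cytochrome cyp2n13 at 0.902 and 48.3 RPKM and the sulfotransferase sult1st2 at 0.126 and 10.4 RPKM.

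In muscle, fast myosin heavy chains stood far higher at 1 week, while light chains and myogenic factors stood closer to their earlier levels. Of 11 myosins, 7 were higher by 2-fold or more and 0 lower. The fast heavy chains myhz1.1, myhz1.2, myhz1.3 and myhz2 stood at 23.1 and 428 RPKM, at 8.62 and 241 RPKM, at 10.4 and 206 RPKM and at 12.6 and 216 RPKM. These copies are similar in sequence and can share reads. The light chain genes myl10 and myl13 were within 2-fold, with 371 and 578 RPKM for myl10. Of 16 thin filament and Z disc genes, 5 were 2-fold higher, led by actc1a, an actin of heart and early muscle, with 6.39 and 115 RPKM, while NEB, the thin filament ruler nebulin, stood at 6.96 and 7.48 RPKM. Among genes of muscle energy and calcium, 14 of 21 were higher and 1 lower, and their share of summed RPKM was 2.78% and then 4.78%. Creatine kinase ckma stood at 1084 and 3136 RPKM, the calcium pump atp2a1l at 24.6 and 551 RPKM, and the calcium buffer pvalb1 at 3868 and 8772 RPKM. The lower one was pvalb9, with 88.1 and 33.5 RPKM. The myogenic factors MYOD1 and MYOG stood at 11 and 18.4 RPKM and at 12.1 and 13.9 RPKM, within 2-fold, and 1 of 7 on their list was higher, KLHL31. Of 11 heart genes, 1 was 2-fold higher, actc1a, and 1 lower, the heart field factor HAND2 at 16.2 and 5.47 RPKM, while the atrial light chain MYL7 stood at 8.45 and 10.8 RPKM.

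In the lens, most gamma crystallins were far higher at 1 week, while alpha and beta crystallins mostly stood within 2-fold. Of 29 gamma crystallins kept, 25 were higher by 2-fold or more and 0 lower, with a median of 2.71. Their share of summed RPKM was 0.596% and then 2.36%. The lowest at Protruding-mouth among the named ones, crygm2d5, stood at 1.05 and 496 RPKM, and crygm2d1 at 61.6 and 1078 RPKM. The member crygm2d13, already at 569 RPKM at Protruding-mouth, reached 1040.2 RPKM. These tandem copies are near-identical and can share reads. Of 9 alpha and beta crystallins, 1 was 2-fold higher, CRYAA at 61.2 and 126 RPKM, and of 12 other lens genes, 1 was, GRIFIN at 19.2 and 82.7 RPKM. The lens filament gene BFSP2 stood at 53.1 and 54.2 RPKM.

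Most opsin genes and a good part of the transduction genes of photoreceptors were higher at 1 week. Of 6 opsin IDs, 5 were higher by 2-fold or more. The red opsin copies stood apart, with opn1lw1 at 0.158 and 13.9 RPKM and opn1lw2 at 108 and 156 RPKM. The blue opsin opn1sw2 stood at 97.9 and 249.7 RPKM. In cone phototransduction 4 of 8 were 2-fold higher, with the cone transducin GNAT2 at 19 and 83.3 RPKM, and in rods 6 of 10 were, with the rod transducin GNAT1 at 12.1 and 50.8 RPKM. The 1 lower rod gene was NR2E3, a transcription factor of rod identity, with 7.37 and 2.74 RPKM. Of 16 genes of photoreceptor structure and retinoids, 4 were higher and 2 lower, with the retinoid carrier rbp3 at 3.24 and 52.1 RPKM.

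In the nervous system, synaptic and neuronal genes stood within 2-fold in most members, as did glial genes, although several myelin genes stood far higher at 1 week. Of 8 synaptic genes, 0 were 2-fold higher and 0 lower, with the vesicle protein vamp2 at 37.6 and 38.8 RPKM. Of 15 neuronal genes, the higher one was CAMK2A, a kinase of synaptic plasticity, at 1.37 and 6.51 RPKM, and the lower one was tubb5, a tubulin of growing neurons, at 195 and 33.8 RPKM. Of 15 glial genes, 5 were 2-fold higher and 0 lower, and 10 were within 2-fold on the log2(RPKM + 1) scale. The myelin genes mbpa and plp1b stood at 5.4 and 70.7 RPKM and at 2.72 and 24.9 RPKM. OLIG2, the factor of the oligodendrocyte lineage, stood at 12.5 and 6.15 RPKM and GFAP, of radial glia, at 92.3 and 77.2 RPKM. Neural progenitor genes had 8 of 18 lower by 2-fold or more and 3 higher. The proneural factor neurog1 stood at 10.5 and 2.29 RPKM and the Notch ligand dlb at 14.6 and 3.38 RPKM. The Notch targets her15.1 and her4.2 were among the higher ones, with 2.88 and 17.2 RPKM and 1.11 and 7.53 RPKM. Those her genes have tandem copies that can share reads. Of 8 inner ear genes, 1 was higher, s100s, and 1 lower, pvalb9. Of 4 olfactory genes 1 was higher, gng13a, a G protein subunit of sensory cells, at 1.09 and 9.33 RPKM.

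Hormone genes were selective. Growth hormone (gh1) stood at 3.29 and 48.9 RPKM, whereas the other pituitary hormones kept were within 2-fold on the log2(RPKM + 1) scale. They were prolactin (prl) at 2.9 and 2.99 RPKM, TSHB at 1.32 and 1.09 RPKM and somatolactin smtlb at 0.539 and 1.12 RPKM. The growth hormone receptor ghrb stood at 2.95 and 22.8 RPKM and its paralogue ghra at 0.921 and 1.47 RPKM. Of 29 neuropeptides and releasing hormones, 13 were higher by 2-fold or more and 0 lower. Regulators of appetite and digestion were among them, with NPY, which stimulates feeding, at 2.89 and 13.6 RPKM, and CCK, a satiety and pancreas-stimulating peptide, at 4.52 and 16.1 RPKM. The melanin-concentrating hormone pmchl stood at 3.23 and 19.6 RPKM and VIP, a peptide of gut and brain neurons, at 3.18 and 16.5 RPKM. Vasotocin, listed as avp, stood at 4.12 and 3.56 RPKM. In the thyroid and steroid group, 1 of 6 was higher, DIO1, which activates thyroid hormone, at 0.631 and 6.72 RPKM, and 2 were lower, the thyroid hormone receptor THRB at 15 and 4.92 RPKM and CYP17A1. Of 9 calcium and growth factor genes, 2 were higher, ghrb and pth2.

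Several cartilage and collagen genes were at lower levels at 1 week, and several genes of teeth and mineral at higher ones. Of 15 cartilage genes, 3 were lower by 2-fold or more and 2 higher. When members listed without their final paralogue letter were added, 6 of 24 were lower and 2 higher. The added lower ones were an ID of collagen COL2A1, at 274 and 115 RPKM, and the SOX9 IDs. Those SOX9 IDs stood at 22.8 and 10.7 RPKM and at 13.4 and 4.18 RPKM. The link protein hapln1a stood at 61.9 and 8.99 RPKM and the collagen IX chain col9a1b at 83.7 and 25.2 RPKM, while MATN1, a matrilin of cartilage, stood at 109 and 122 RPKM. Of 19 bone and tooth genes, 6 were higher and 1 lower. The secretory calcium-binding phosphoprotein genes scpp9 and scpp5 stood at 0.0538 and 7.26 RPKM and at 5.78 and 12.9 RPKM, and osteopontin (spp1), a bone matrix protein, at 1.79 and 14.6 RPKM. The collagen I chain col1a1a was the lower one, at 268 and 119 RPKM. With paralogue letters dropped, 3 of 25 bone and tooth members were lower and 6 higher, the added lower ones being ACP5 and an ID of DLX2. The osteoblast markers SP7 and bglap were under 1 RPKM in both libraries.

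In the skin, 15 of 25 keratin list members were higher by 2-fold or more and 0 lower. That list also holds genes that are not keratins. Among its higher members, these are icn at 278 and 1088 RPKM and epcam at 65.8 and 137 RPKM. The type I keratin krt17 stood at 15.3 and 350.5 RPKM, cyt1 at 68.3 and 900.0 RPKM and krt91 at 151 and 1102 RPKM. The most abundant keratin at Protruding-mouth, krt4, stood at 3181 and 2050.4 RPKM. In the fin fold, the actinodin gene and1, which encodes a protein of the fibrils that stiffen the fin fold, stood at 165 and 68.2 RPKM. The other actinodin genes on the list were within 2-fold, and2 at 212 and 157 RPKM and and3 at 81.8 and 42.2 RPKM. The hatching enzyme genes he1.1 and he1.2, which digest the egg envelope, stood at 5.17 and 0.153 RPKM and at 2.64 and 0.18 RPKM. Of 9 genes in that group, 3 were 2-fold lower and 0 higher. Among ionocyte and kidney genes, 10 of 23 were higher and 0 lower, with the sodium pump subunit atp1a1a.4 at 9.9 and 59.6 RPKM and the water channel aqp8a.2 at 1.39 and 16.3 RPKM. When members listed without their final paralogue letter were added, 10 of 34 were higher and 3 lower. The lower ones were the PAX2 IDs, at 12.1 and 4.66 RPKM and at 2.38 and 0.57 RPKM, and an ID of SLC4A1, at 20.8 and 7.64 RPKM. Of 7 swim bladder genes 2 were higher, the smooth muscle actin acta2 at 15.8 and 124 RPKM and hbegfa. Of 19 pigment genes, 3 were higher and 4 lower. The iridophore purine enzyme pnp4b stood at 4.64 and 69.1 RPKM, whereas its paralogue pnp4a stood at 20.7 and 10.4 RPKM, a difference of -0.94. The melanosome protein pmelb stood at 20.5 and 2.04 RPKM, while its paralogue pmela stood at 33.2 and 32.2 RPKM.

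Globin genes differed in both directions. Of 10 globin genes, 5 were higher by 2-fold or more and 3 lower. The embryonic alpha globin hbae3 stood at 5359 and 729 RPKM, and the embryonic beta globin hbbe3 at 55.2 and 0.522 RPKM, a ratio of 0.00945 with a counting interval from 0.00713 to 0.0123. The alpha globins hbae1.1 and hbae1.2, which share the embryonic hbae symbol with hbae3, went the other way. They stood at 4.54 and 181 RPKM and at 3.43 and 177 RPKM. The globin share of summed RPKM was 1.41% and then 0.248%. Of 12 erythroid genes, 2 were lower, alas2, the first enzyme of heme synthesis in red cells, at 23.9 and 5.16 RPKM, and the carbonic anhydrase cahz at 65.4 and 31.9 RPKM. The 1 higher one, tfr1b, is among the genes near 0 in the 8 other libraries. Of 17 vascular genes, 3 were higher and 1 lower (NOTCH3), with the endothelial cadherin cdh5 at 3.59 and 2.48 RPKM.

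Antigen presentation was the immune group with the highest median, 1.39. Of 15 kept, 8 were higher by 2-fold or more and 0 lower. The MHC class I gene mhc1zba stood at 4.63 and 50.1 RPKM and the light chain b2ml at 9.63 and 45.6 RPKM. Of 15 phagocyte genes 2 were 2-fold higher, LCP1 and marco, and lysozyme (lyz) stood at 30.8 and 30.7 RPKM. Of 10 acute phase and interferon genes, 2 were higher and 1 lower (irg1l), with the interferon-induced isg15 at 0.4 and 10.4 RPKM. Of the 22 lymphocyte IDs, 3 were kept. RAG1, which cuts antigen receptor genes, stood at 0.253 and 1.41 RPKM, and ccl25b, a thymus chemokine, at 14.9 and 40.5 RPKM.

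**Figure D4:**
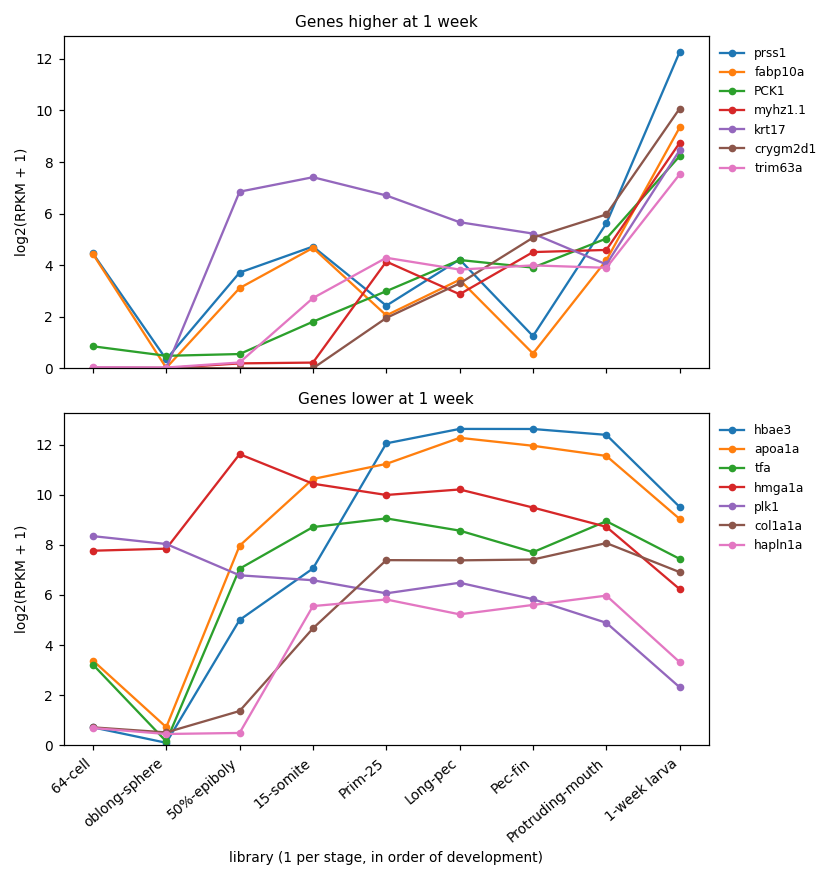
Level of 14 genes in log2(RPKM + 1) in the 9 libraries, 1 per stage in order of development. Upper panel, genes higher at 1 week, with krt17 at 15.3 and then 350.5 RPKM in the last libraries. Lower panel, genes lower at 1 week, with hbae3 at 5359 and then 729 RPKM.

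Cell division genes were lower almost as a block. Of 41 mitosis genes, 39 were lower by 2-fold or more and 1 higher, with a median of -1.70. The higher one was the survivin gene birc5b, at 0.457 and 2.88 RPKM. The mitotic kinases plk1 and CDK1 stood at 28.7 and 3.98 RPKM and at 45.1 and 8.36 RPKM, and the proliferation marker mki67 at 18 and 2.52 RPKM. Of 39 replication genes, 21 were lower and 1 higher, an ID of RRM2, with the polymerase clamp PCNA at 182 and 49 RPKM. Cell cycle brakes did not all differ in 1 direction. BTG2 and tob1b, antiproliferative genes, stood at 82.3 and 329.9 RPKM and at 37.1 and 175 RPKM, and cdkn1a at 1.79 and 4.73 RPKM. The inhibitor cdkn1ca stood at 38.7 and 12 RPKM. On their list, which also holds G1 cyclins and so is not a count of brakes alone, 4 of 13 were higher and 5 lower.

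Nuclear genes abundant in embryonic cells were lower as well. Of 31 splicing and chromatin genes, 22 were lower by 2-fold or more and 0 higher, with a median of -1.28. The chromatin protein hmga1a stood at 421 and 74.2 RPKM, the remodeller smarca5 at 33.7 and 6.33 RPKM and the histone methyltransferase EZH2 at 10.0 and 1.91 RPKM. SF3B1, a core splicing factor, stood at 46.6 and 76.8 RPKM. Of 10 hox genes, which pattern the body axis, 4 were 2-fold lower and 0 higher, with hoxa9b at 11.6 and 2.59 RPKM. When members listed without their final paralogue letter were added, it was 22 of 36. The embryonic signalling list had 2 of 21 members higher, the feedback inhibitors DUSP6 and SPRY4 of growth factor signalling, and 0 lower. Of 25 proteasome genes, 4 were lower and 0 higher, with the catalytic subunit PSMB5 at 105 and 40.2 RPKM.

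Respiratory genes stood near equality, and ribosomal protein genes stood moderately higher at 1 week. Of 63 ribosomal protein genes, 15 were higher by 2-fold or more and 0 lower, with a median of 0.75 that the scalings tried reduce to as little as 0.22. RPL38 had the largest of these differences, with 92.2 and 859 RPKM, and RPS29 stood at 4474 and 4587 RPKM. Of 40 ribosome biogenesis genes, 2 were higher and 3 lower, with the helicase DDX21 at 31.2 and 214 RPKM. The 13 mitochondrially encoded genes were all within 2-fold, and held 16.2% and then 12% of summed RPKM. Their own summed RPKM was 63686 and then 65150, so the smaller share reflects the larger sum over all genes at 1 week. MT-CO2, the highest gene at 1 week, stood at 11881 and 16959 RPKM, and MT-ATP6, the highest at Protruding-mouth, at 12210.0 and 8249.6 RPKM. Of nuclear complex I genes 1 of 29 was higher, ndufv3, and of complexes II to V 6 of 30 were higher and 1 lower (atp5mc1). The median was -0.09 for complex I and 0.17 for complexes II to V, and the latter was between -0.01 and -0.36 under the other scalings. Single subunits stood far from the rest of their complex. The cytochrome c oxidase subunit cox5aa stood at 0.343 and 78.9 RPKM, and the Rieske protein UQCRFS1 at 4.78 and 55.9 RPKM. These subunits and RPL38 were above 0.1 RPKM at Protruding-mouth, so they are outside the genes near 0 in the 8 other libraries. Whether what sets those genes apart in the 1-week library also bears on these was not tested.

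**Figure D5:**
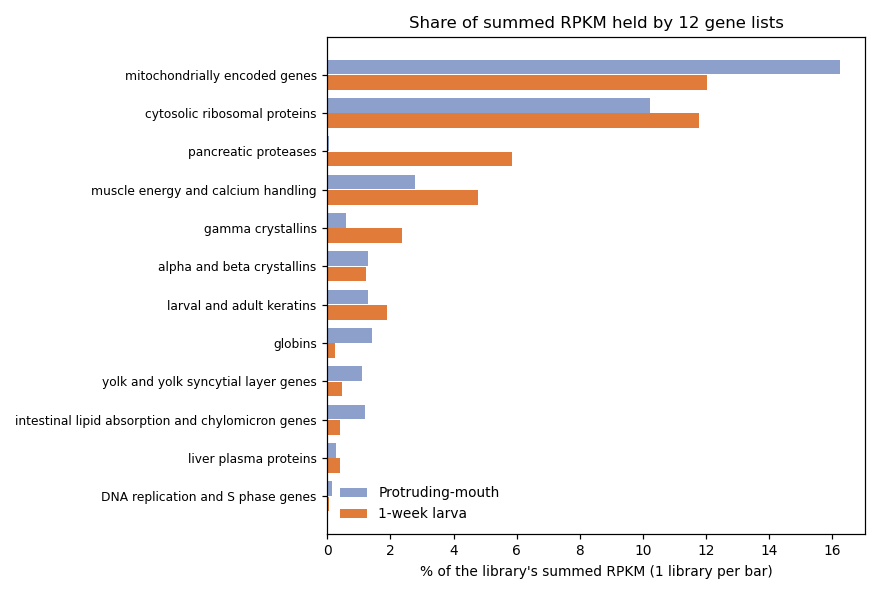
Percent of each library's summed RPKM held by 12 gene groups, Protruding-mouth in blue and 1-week larva in orange, 1 library per bar. Pancreatic proteases go from 0.0451% to 5.85%, and globins from 1.41% to 0.248%. The sums over all genes differ, with 392266 RPKM at Protruding-mouth and 541791 RPKM at 1 week.

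Clock and stress genes completed the comparison. Of 24 circadian genes, 10 were higher by 2-fold or more and 2 lower. The repressor NR1D1 stood at 4.17 and 46 RPKM and its relative nr1d2a at 17.1 and 54.9 RPKM, while the activator bmal2 stood at 4.13 and 0.753 RPKM. Other members of these families did not share this pattern. The relative nr1d4b stood at 1.55 and 0.399 RPKM. The BMAL1 IDs, matched without their paralogue letter, stood at 6.77 and 5.79 RPKM and at 2.55 and 2.58 RPKM. The hour of collection is not in the labels, so time of day and age cannot be told apart here. Of 31 heat shock and other stress response genes, 7 were higher and 2 lower, beside 16.4% higher and 7.46% lower among all genes kept. The inducible chaperone genes hsp70.1, hsp70.3 and hsp70l were among the higher ones, with 0.0387 and 2.92 RPKM, 0.752 and 3.16 RPKM and 0.37 and 4.12 RPKM, and these copies can share reads. The gene hsp70.1 is among the genes near 0 in the 8 other libraries. The mitochondrial chaperone HSPD1 was among the lower ones at 46.8 and 17.5 RPKM.

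Some genes were absent or nearly so at Protruding-mouth and plainly present at 1 week. Under 0.1 RPKM in the first library and at least 5 RPKM in the second were 117 genes, of which 79 are among those at or under 0.1 RPKM in all 8 other libraries, and the reverse held for 0. The highest with a unique symbol were zgc:158463, for which no function is given here, at 0.0117 and 113 RPKM, and the elastase cela1.2 at 0.0632 and 76 RPKM. Of the 46 with a unique symbol, 9 had their highest level of all libraries in the 64-cell embryo, among them genes of the egg coat, the envelope that the mother's ovary lays around the egg. All 9 members kept of the vitellogenin and egg coat list were egg coat genes at least 2-fold higher at 1 week. Their median at Protruding-mouth was 0.0807 RPKM, so most were kept through the 1-week library alone. The lack of lower members largely follows from that filter and is not a result about the group. The other 10 of 19 IDs were not kept. The gene zp2.1 was listed at 0 at Protruding-mouth and stood at 17.3 RPKM at 1 week, so no fold is given. The gene zp2.5 stood at 0.0531 and 18.2 RPKM and zp3b at 0.329 and 4.97 RPKM. In the 64-cell library zp2.5 stood at 22.5 RPKM and at Long-pec at 0.09 RPKM. The gene zp3b had a higher value at Long-pec than in the next library, with 177 RPKM at 64-cell, 2.19 RPKM at Long-pec and 0.255 RPKM at Pec-fin. The vitellogenin vtg1, a yolk precursor made by the adult female liver, stood at 0.0381 and 0.953 RPKM. Germ cell markers DDX4 and DAZL stood at 0.688 and 0.855 RPKM and at 0.185 and 0.306 RPKM, and ZAR1, an oocyte gene, at 0.0774 and 2.21 RPKM. At Long-pec and then Pec-fin, DDX4 stood at 2.53 and 0.483 RPKM, DAZL at 1.18 and 0.11 RPKM, and the testis gene insl3 at 12.8 and 0.0865 RPKM. These gonad genes stood higher at Long-pec than in the library after it, while insl3 stood at 0.825 and 0.693 RPKM in the last pair. The level of insl3 was not particular to Long-pec. It stood at 7.09 RPKM at 50%-epiboly, 15.0 RPKM at 15-somite, its highest level, and 1.76 RPKM at Prim-25. Of 27 germ line and gonad IDs, 5 were kept and 3 were 2-fold higher. The source of the egg coat RNA at 1 week, and of the gonad gene RNA at Long-pec and in the libraries before it, was not tested.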

How the data were processed

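Per the labels' protocols, total RNA of about 2000 individuals per stage was enriched for poly(A) RNA, which was cut by RNase III and sequenced as SOLiD fragment libraries. The authors deposited 1 RPKM value per Ensembl gene and stage, on genome build Zv9 per the submitters' processing notes. No source used here names the aligner, the counting rules or the annotation release. Symbols from a table of gene IDs matched 19580 of 29291 IDs. No genome was used, so no coordinates or sequences are given.

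Genes with at least 1 RPKM in either library were kept, the pseudocount was 1, and 4-fold (lists: 2-fold) differences were counted. Read totals were recovered as the common divisor of the low RPKM steps, which returned 10 of 10 totals in simulated data. Those data held only whole reads over 1 length per gene, an easier setting than the deposited values. No total is given for the Pec-fin library. Median lengths and counting intervals rest on genes with whole reads over 1 length in the single-run libraries. Members and lists were chosen with earlier results of these data known, and members were matched by symbol without regard to case. Named genes were the 15 largest differences each way, the members of short lists, the largest, most abundant and opposite members of longer lists, the highest genes near 0 in 1 library, and cell type markers. A few other list members are named as contrasts, chosen after their values were seen. Some list members are counted but not reported by name here. Alternatives were another pseudocount, filter, scaling and gene matching. Python 3.11.15, numpy 2.4.6, pandas 2.3.3 and scipy 1.17.1 were used.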

Additional observations from a re-analysis of the deposited data

How the results depend on the processing

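No paired analysis was possible because each stage has 1 library and the 2 groups share no replicates beyond it. With a pseudocount of 0.1 in place of 1, 2181 genes passed 4-fold upward and 271 downward. The count of lower genes, 88 as deposited, was 135 with size factors from the 2 libraries, 219 with equal sums outside the 100 most abundant genes, 312 with equal sums without mitochondrially encoded genes (against 707 higher), and 248 with size factors from 9 libraries, a setting added after seeing the data. Under 0.1 RPKM first and at least 5 RPKM at 1 week were 117 genes, or 38 without the genes near 0 in the 8 other libraries, also added. Under 0.2 and at least 2 RPKM, 517 genes were near 0 first and high at 1 week, and 6 the reverse. Of 21 lists with a median past 2-fold, 20, 18, 14 and 17 stayed past it under those scalings in that order, and 0 changed direction under any of the settings run. Among all lists the median changed sign in 6 of 73, 11 of 72, 16 of 71 and 14 of 72 under the same scalings. Matching members after dropping a final paralogue letter kept 20 of the 21 past 2-fold. That matching also brought lower members into groups that had 0 without it, among them ionocyte and kidney, fatty acid synthesis and glial genes. The cause of these changes was not tested. Depth limits little above 1 RPKM, and the lack of a second library limits every statement.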

Other observations

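Families chosen after their values were seen, and so described without support from a test, add to the picture. Genes for protein folding and collagen modification in the endoplasmic reticulum were mostly lower at 1 week, with 26 of 40 at least 2-fold lower, 2 higher and a median difference of -1.26. The chaperone HYOU1 stood at 23.2 and 4.17 RPKM, the disulfide isomerase PDIA6 at 50.6 and 9.91 RPKM, the prolyl isomerase FKBP9 at 58.9 and 7.62 RPKM and the collagen prolyl hydroxylase P3H1 at 11 and 1.57 RPKM. SSR3, a subunit of the translocon-associated complex of that compartment, was an exception with 1.86 and 138 RPKM, as was the lysyl hydroxylase PLOD3 with 1.47 and 5.03 RPKM. Of 40 collagen chain genes, 8 were lower and 0 higher.

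Serine, folate and purine synthesis had 10 of 21 genes lower and 2 higher. MTHFD1L, a mitochondrial folate enzyme, stood at 16.5 and 0.455 RPKM, PSAT1, of serine synthesis, at 38.2 and 7.7 RPKM, and ATIC, which completes the purine ring, at 19.1 and 4.52 RPKM. ALDH1L1, a cytosolic folate enzyme that burns formyl groups, stood at 11.5 and 31.1 RPKM. Of 20 sox genes, transcription factors of progenitors, 11 were lower and 0 higher. Of 12 heterogeneous nuclear ribonucleoproteins, 7 were lower and 0 higher.

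Of 47 cytochromes P450, 27 were higher by 2-fold or more and 1 lower (CYP17A1), with cyp3c3 at 0.155 and 15.8 RPKM. Of 315 solute carriers, 60 were higher, which is 19% and close to the 16.4% of all genes kept, and 16 were lower. Among them the peptide carrier SLC15A1 stood at 0.571 and 30.6 RPKM and the nucleoside carrier SLC28A2 at 0.286 and 5.74 RPKM. Of 10 aquaporins, 5 were higher and 0 lower, with aqp10a at 0.558 and 10.6 RPKM.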
